A study of Mus musculus with 6 samples.

Results

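The Hippo pathway genes examined here are the kinase genes Stk3, Stk4, Lats1 and Lats2, their cofactor genes Sav1, Mob1a and Mob1b, the upstream gene Nf2 and the effector genes Yap1 and Wwtr1. These 10 genes were chosen by name from the 34718 genes of the table, with results of the same comparison already known, Stk4 having stood out among all genes. Their differences between control and knockdown are therefore given as a description, without a test. The libraries were made from Hepa1-6, a mouse hepatoma line grown in culture. There were 3 libraries titled shNC, labelled as control, and 3 titled shZfp207, labelled as Zfp207 knockdown. The labels state neither how many hairpin sequences were used nor whether replicates came from separate cultures. Off-target action of the hairpin and loss of Zfp207 therefore cannot be told apart, and the p-values reflect only how these libraries vary, which may be technical.

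In the Hippo pathway the kinases MST2 and MST1, encoded by Stk3 and Stk4, bind the scaffold SAV1 and phosphorylate LATS1 and LATS2 together with their cofactors MOB1A and MOB1B. The LATS kinases phosphorylate the transcriptional coactivators YAP, encoded by Yap1, and TAZ, encoded by Wwtr1, which are then held in the cytoplasm or degraded. In the nucleus YAP and TAZ act mainly through TEAD factors, and in the liver the pathway is known for limiting organ size and tumour growth. Transcript levels do not show the phosphorylation state of any of these proteins.

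Libraries held 11933736 to 16248346 counts. Values per library are counts per 1000000 counts (CPM), and means ± SD are CPM after scaling by TMM, edgeR's trimmed mean of M-values. Zfp207 itself had 141.4 to 216.8 CPM in control cells and 46.8 to 48.1 CPM in knockdown cells. Control replicate 1 stood apart, with a mitochondrial share of its counts of 10.5%, where the other controls had 2.67% and 2.89% and the knockdown libraries 5.6% to 6%. Results that rest on this library are given with and without it. Of 10 hepatocyte markers, 9 had enough counts to test, including Alb, Afp and Hnf4a, while Ttr was under 1 CPM in every library. The summed level of the hepatocyte markers was 2631.3 to 3625.2 CPM in control and 5478.4 to 5800.9 CPM in knockdown cells, and its part in the Hippo gene values was not tested. Of 10 leukocyte, endothelial, fibroblast and stellate markers, 8 were under 1 CPM in every library, and their summed level was 14.4 to 19.2 CPM in control and 12.9 to 15.1 CPM in knockdown cells.

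All 10 genes passed the filter on low counts. In the edgeR fit to all 6 libraries 1 of the 10, Stk4, had an adjusted p below 0.05, where 20.6% of the 11975 genes tested did. Nothing is read from this count, since the comparison was used to choose the genes. The median log2 fold change of the 10 genes was 0.25, beside -0.03 over all genes tested. CPM values of the groups did not overlap for Stk4, Lats1 and Yap1, all higher in knockdown cells, where 21.5% of all genes tested were higher without overlap, 23.4% lower and 44.9% either.

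**Figure D1:**
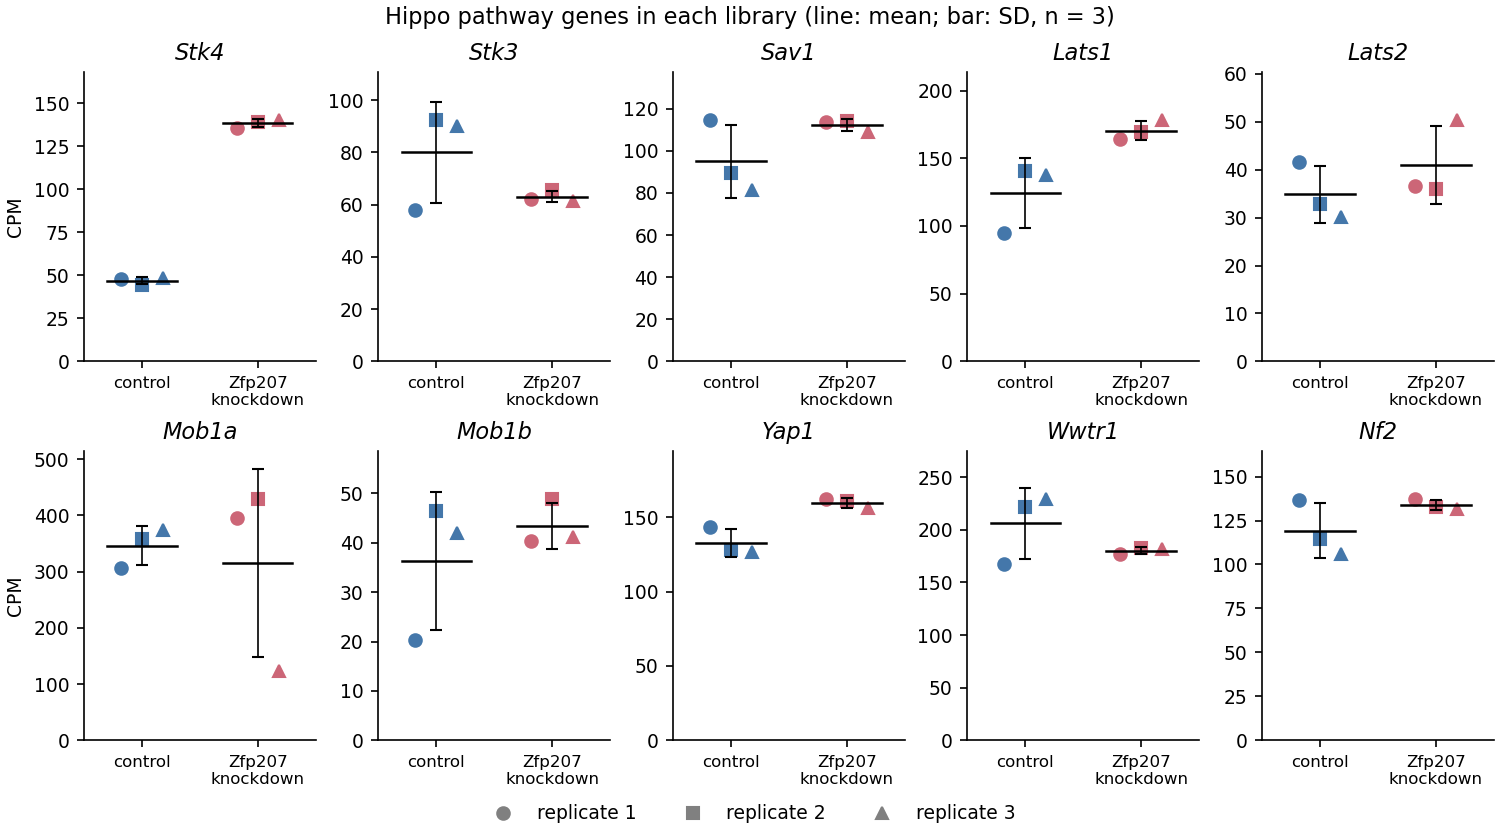
CPM of the 10 Hippo pathway genes in each library, with control libraries in blue, knockdown libraries in red, the marker shape giving the replicate, and the line and bar giving the mean and SD of 3 libraries. Stk4 lies at 44.4 to 48.2 CPM in control and 135.9 to 140.1 CPM in knockdown cells, control replicate 1 stands off the other controls for Stk3, Lats1 and Mob1b, and knockdown replicate 3 is at 123.2 CPM for Mob1a.

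Stk4 (ENSMUSG00000018209, chromosome 2 from 164070322 to 164155524 in mm10, plus strand), the gene of the initiating kinase MST1, had 47.6, 44.4 and 48.2 CPM in the control libraries and 135.9, 139.4 and 140.1 CPM in the knockdown libraries, here and below in the order of replicates 1 to 3. Every knockdown library lay above every control library, and control replicate 1 did not differ visibly from the other controls. Mean levels were 46.6 ± 1.81 CPM for control and 139.2 ± 3.07 CPM for knockdown libraries (SD, n = 3 each), a 2.99-fold difference (log2 fold change 1.58, SE 0.083). The value was 1.59 without control replicate 1 and 1.55 to 1.60 with each library left out. None of the exonic sequence of Stk4 overlaps another annotated gene.

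Stk3 (ENSMUSG00000022329, chromosome 15 from 34875496 to 35155806, minus strand), the gene of the paralogous kinase MST2, had 57.8, 92.2 and 90.2 CPM in the control replicates and 62.1, 65.5 and 61.5 CPM in the knockdown replicates. Control replicate 1 lay below all 3 knockdown libraries, and the other controls lay above them, so the groups overlapped. The log2 fold change was -0.34 (SE 0.187) with all libraries and -0.53 (SE 0.0565) without control replicate 1. The pair thus differed in sign: Stk4 was higher and Stk3 lower in knockdown cells in both fits.

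Levels of different genes are compared here only per length, as the deposited FPKM values (fragments scaled by transcript length and library total). Stk4 had 7.49, 6.99 and 7.58 FPKM in control and 21.4, 21.9 and 22 FPKM in knockdown cells, and Stk3 had 11.1, 17.8 and 17.4 FPKM in control and 12, 12.6 and 11.8 FPKM in knockdown cells. In each control library Stk4 was below Stk3, and in each knockdown library it was above. The Stk4 to Stk3 ratio of FPKM was 0.672, 0.393 and 0.436 in the control replicates and 1.79, 1.74 and 1.86 in the knockdown replicates. On the log2 scale the mean ratio was -1.04 ± 0.41 in control and 0.84 ± 0.0496 in knockdown cells (SD, n = 3 each), a difference of 1.88, or 2.12 without control replicate 1. With the exonic lengths of GENCODE M21 in place of those behind the FPKM values, the ratio was 0.503 to 0.859 in control and 2.22 to 2.38 in knockdown cells. The order of the pair in the control libraries and its exchange in the knockdown libraries were the same with either length.

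Stk3 and Stk4 together summed to 18.6, 24.8 and 25 FPKM in control and 33.3, 34.6 and 33.9 FPKM in knockdown cells, a 1.49-fold difference of the means (22.8 ± 3.6 and 33.9 ± 0.609, SD, n = 3 each). The summed level of every knockdown library was above that of every control library. Stk4 made up 32.9% of this sum on average in control cells and 64.2% in knockdown cells.

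**Figure D2:**
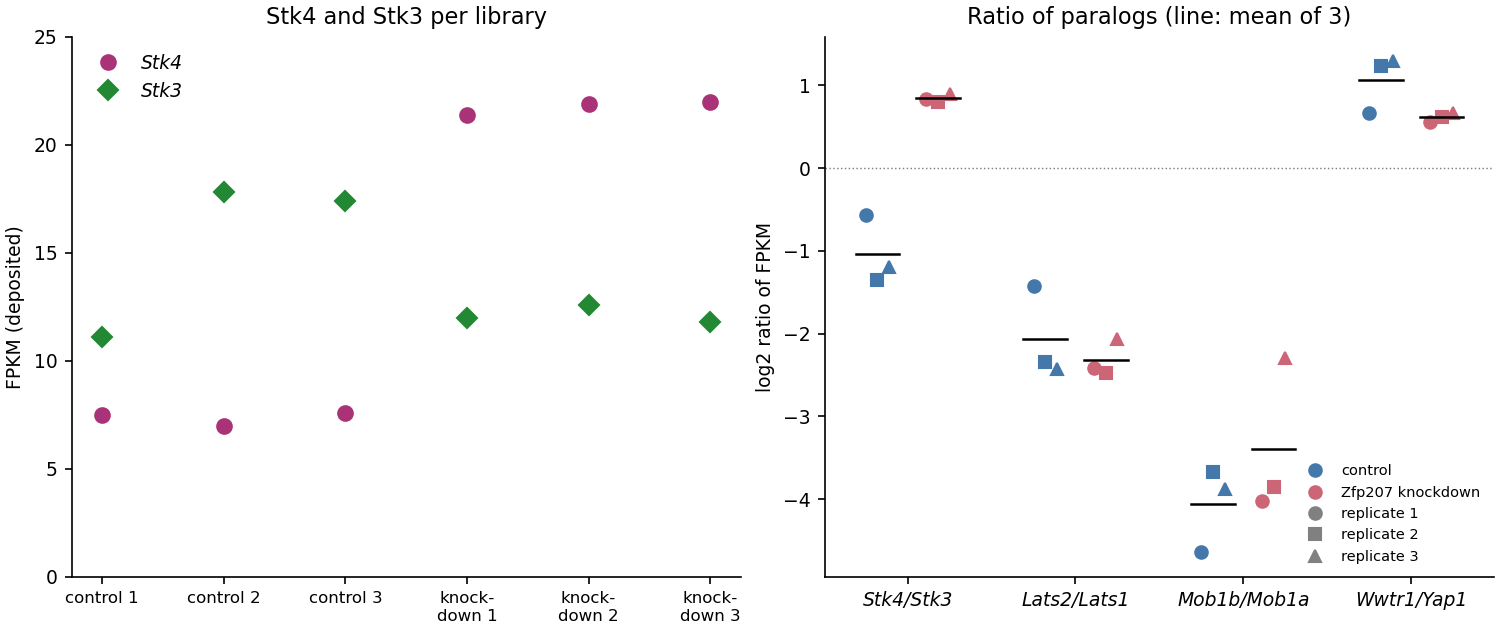
Left, deposited FPKM of Stk4 (circles) and Stk3 (diamonds) in each library; right, log2 ratio of FPKM for 4 paralog pairs, with the line at the mean of 3 libraries. Stk4 is below Stk3 in the 3 control libraries and above it in the 3 knockdown libraries, and the Stk4/Stk3 ratio goes from a mean of -1.04 to 0.84 while the Lats2/Lats1 ratios of the groups overlap.

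The scaffold gene Sav1 (chromosome 12 from 69965012 to 69987002, minus strand) had 114.5, 89.4 and 81.2 CPM in control and 113.9, 114 and 109.2 CPM in knockdown cells. Control replicate 1 lay at the level of the knockdown libraries and the other controls below it. Its log2 fold change was 0.26 (SE 0.135), and 0.40 (SE 0.06) without control replicate 1. Up to 25.4% of the exonic sequence of Sav1 overlaps Atl1 on the opposite strand, and without a stated strand setting reads of the pair cannot be told apart there.

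Lats1 (chromosome 10 from 7681209 to 7716458, plus strand), one of the kinases that phosphorylate YAP and TAZ, had 94.4, 140.8 and 137.6 CPM in control and 164, 169.2 and 177.9 CPM in knockdown cells. The groups did not overlap. Control replicate 1 lay below the other controls, farther from the knockdown libraries. The log2 fold change was 0.47 (SE 0.165), and 0.30 (SE 0.0515) without that library.

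Lats2 (chromosome 14 from 57642077 to 57758388, minus strand), the other LATS kinase gene and itself a known target of YAP, had 41.6, 32.8 and 30.2 CPM in control and 36.6, 36 and 50.3 CPM in knockdown cells. The groups overlapped, with the highest value in knockdown replicate 3. The fitted difference was 0.25 on the log2 scale (SE 0.183) and ranged from 0.07 to 0.39 with each library left out. In GENCODE M21, whose span for Lats2 differs from that given with the counts, 42.4% of its exonic sequence is shared with the gene model Gm49361. That model lies on the same strand, so the level of Lats2 is uncertain. Per length Lats2 was below Lats1 in every library, with FPKM sums of the pair of 17.4 ± 2.38 in control and 23.1 ± 1.53 in knockdown cells (SD, n = 3 each).

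Mob1a (chromosome 6 from 83326016 to 83343776, plus strand), a cofactor of the LATS kinases, had 307, 357.9 and 373.6 CPM in control and 395.2, 428.3 and 123.2 CPM in knockdown cells. Knockdown replicates 1 and 2 lay above all controls and replicate 3 far below them. In replicate 3 Mob1a was at 0.301 of the level of the other knockdown libraries, and the deposited FPKM values showed the same, at 36.5, 39.5 and 11.4. The log2 fold change was -0.12 (SE 0.421) with all libraries and 0.26 without knockdown replicate 3, so 1 library set its sign. Among 9946 genes with a mean of at least 5 CPM, 24 (0.241%) differed at least 2-fold in knockdown replicate 3 from the mean of the other knockdown libraries while those lay within 0.25 of each other on the log2 scale, and by size Mob1a ranked 9 among all 9946. Its neighbour Mthfd2 had 247.8, 248.4 and 246.4 CPM in the same libraries.

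Mob1b (chromosome 5 from 88720855 to 88764220, plus strand), the paralog of Mob1a, had 20.3, 46.5 and 42 CPM in control and 40.3, 48.8 and 41.2 CPM in knockdown cells. Control replicate 1 was at 0.454 of the level of the other controls, which overlapped the knockdown libraries. The log2 fold change was 0.27 (SE 0.298) with all libraries and -0.02 (SE 0.105) without control replicate 1. Per length Mob1b was below Mob1a in every library and made up 5.84% of their summed FPKM in control and 9.72% in knockdown cells, the latter share raised by the low Mob1a value of replicate 3.

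Nf2 (chromosome 11 from 4765845 to 4849536, minus strand) encodes merlin, a membrane-associated protein that promotes LATS activation. It had 136.5, 114.5 and 106.2 CPM in control and 137, 132.5 and 131.7 CPM in knockdown cells. Control replicate 1 again lay at the level of the knockdown libraries. Its log2 fold change was 0.18 (SE 0.11), and 0.28 (SE 0.0519) without that library.

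The effector genes had differences of opposite sign. Yap1 (chromosome 9 from 7931999 to 8004596, minus strand) had 143.5, 128 and 126.8 CPM in control and 162, 160.9 and 156.1 CPM in knockdown cells. The groups did not overlap, and the log2 fold change of 0.28 (SE 0.0858) was 0.33 (SE 0.0414) without control replicate 1. Wwtr1 (chromosome 3 from 57455649 to 57575910, minus strand) had 167.6, 221.9 and 228.8 CPM in control and 176.5, 182.6 and 181.5 CPM in knockdown cells. The control values lay on both sides of the knockdown values, and the log2 fold change was -0.18 (SE 0.136), or -0.32 (SE 0.0406) without control replicate 1. Per length Wwtr1 exceeded Yap1 in every library. Their summed FPKM was 36.9 ± 3.23 in control and 36.2 ± 0.351 in knockdown cells (SD, n = 3 each), a difference smaller than the spread of the controls, while the share of Wwtr1 in that sum was 67.5% in control and 60.5% in knockdown cells.

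Control replicate 1 entered several of these values. For 7 of the 10 genes (Stk3, Sav1, Lats2, Mob1a, Mob1b, Wwtr1 and Nf2) its level was nearer to the mean of the knockdown libraries than to that of the other controls, as it was for 46.8% of all genes tested. Of these 7, Mob1b was far from both: control replicate 1 lay 1.14 below the other controls on the log2 scale and the knockdown mean 0.02 below them. Mob1a entered this count through the 123.2 CPM of knockdown replicate 3, since control replicate 1, at 307 CPM, lay below the other controls and knockdown replicates 1 and 2 above them. Its mitochondrial share was also nearer to that of the knockdown libraries than to that of the other controls, and the part of this in the Hippo gene values was not tested. Without this library 7 of the 10 genes had an edgeR adjusted p below 0.05, where 52.1% of 12108 genes tested did. Among them 5 were higher (Stk4, Sav1, Lats1, Yap1 and Nf2) and 2 lower (Stk3 and Wwtr1), where 26.1% of all genes were higher and 26.1% lower. Nothing is read from this count either, since the comparison was used to choose the genes. With another library left out, the share of all genes below that threshold was 12.5% (control replicate 2), 10.4% (control replicate 3), 5.93%, 4.91% and 4.37% (knockdown replicates 1 to 3). Stk4 had the largest log2 fold change of the 10 in either fit, and the next in size were 0.47 for Lats1 with all libraries and -0.53 for Stk3 without control replicate 1.

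**Figure D3:**
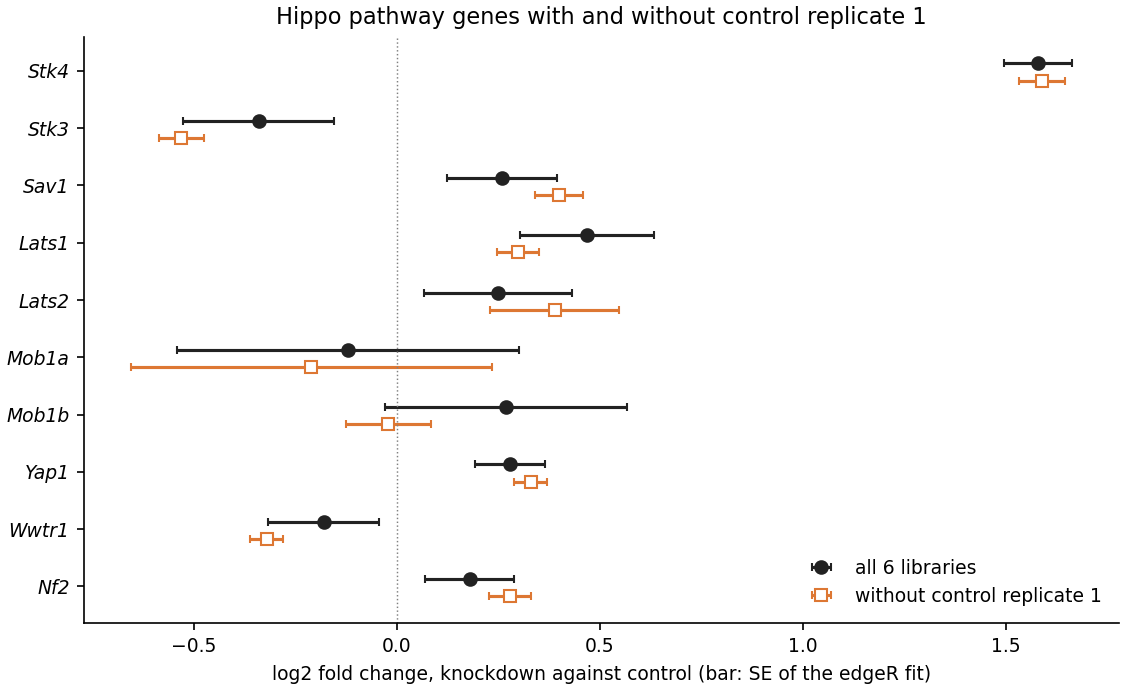
Log2 fold change (knockdown against control) of the 10 genes in the edgeR fit to all 6 libraries (filled circles) and without control replicate 1 (open squares); bars are the SE of the fit. Stk4 lies at 1.58 and 1.59, the other 9 genes lie between -0.53 and 0.47, and the bars of Mob1a are wide in both fits.

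The order of the levels per length also changed at Stk4. In control cells the mean FPKM ran from Sav1 (37.6 ± 6.88) over Mob1a (31.9 ± 3.21), Wwtr1 (25 ± 4.07), Stk3 (15.4 ± 3.72), Lats1 (14 ± 2.92), Nf2 (12.6 ± 1.65), Yap1 (11.9 ± 0.833), Stk4 (7.35 ± 0.32) and Lats2 (3.33 ± 0.569) to Mob1b (2.03 ± 0.783, SD, n = 3 each). The ranges of Sav1 and Mob1a overlapped, as did those of each neighbouring pair from Stk3 to Yap1. In knockdown cells Stk4 (21.8 ± 0.361) ranked 4 of 10, level with Wwtr1 (21.9 ± 0.392), whose range it overlapped, and Stk3 (12.1 ± 0.417) ranked 8. The lengths implied by the FPKM values differ from the exonic lengths of GENCODE M21, for Sav1 2530 against 5265 bases and for Mob1a 10837 against 4794 bases. With the M21 lengths Mob1a ranked 1 in both groups, Sav1 ranked 3 in control and 5 in knockdown cells, and Stk4 ranked 8 in control and 3 in knockdown cells. In control cells the ranges then overlapped for each neighbouring pair from Sav1 over Nf2, Lats1 and Yap1 to Stk3. In knockdown cells those of Mob1a and Wwtr1 overlapped, as did those of Stk4 and Lats1.

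The only promoter shown for a Hippo kinase gene is that of Stk4, since Stk4 carried the largest difference. The 250 bases before its RefSeq start (GRCm38.p6, chr2:164073888-164074137, plus strand) held 60% G and C and 16 CpG dinucleotides, against medians of 52% and 6 over the first listed start of 27025 genes. This start lies inside the span that the count table gives for the gene. The window is printed in lower case, and neither GGAATG nor its reverse complement CATTCC, the core letters bound by TEAD factors, was found in it.
Stk4: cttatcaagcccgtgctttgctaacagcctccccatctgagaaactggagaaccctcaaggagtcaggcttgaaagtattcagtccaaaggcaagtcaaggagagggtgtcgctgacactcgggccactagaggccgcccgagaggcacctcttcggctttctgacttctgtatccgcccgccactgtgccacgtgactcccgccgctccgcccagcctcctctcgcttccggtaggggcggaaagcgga

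Genes next to Stk4 were examined to see whether its surroundings differed as well. The table lists 45 genes within 500 kb of Stk4, of which 25 had no count in any library and 13 had enough counts to test. Of these 13, 1 passed the threshold and was higher in knockdown cells. This is 7.69%, where 9.92% of all genes tested were higher and 20.6% passed in either direction. Nothing is read from a count of 1. That gene was Sdc4, which encodes the heparan sulfate proteoglycan syndecan 4 and lies 269 kb away. It had 132.1 to 140.2 CPM in control and 169.2 to 177.7 CPM in knockdown cells (edgeR adjusted p = 0.025, log2 fold change 0.35 with SE 0.0793), and it lost its call in 5 of the 6 fits that left out 1 library, with adjusted p up to 0.117. Tomm34, a mitochondrial import factor gene whose span overlaps the first part of the Stk4 span, had 67.1 to 70.2 CPM in control and 78.8 to 82.7 CPM in knockdown cells (edgeR adjusted p = 0.0801, log2 fold change 0.24 with SE 0.0804). Ywhab, a 14-3-3 protein gene 51.7 kb away that was named after its values were seen, had a log2 fold change at 0.09 (SE 0.0909). No gene with over 100 counts in all within this window had a log2 fold change as high as that of Stk4. Without control replicate 1, 4 of the 13 were higher and 2 lower, 46.2% where 52.1% of all genes passed.

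**Figure D4:**
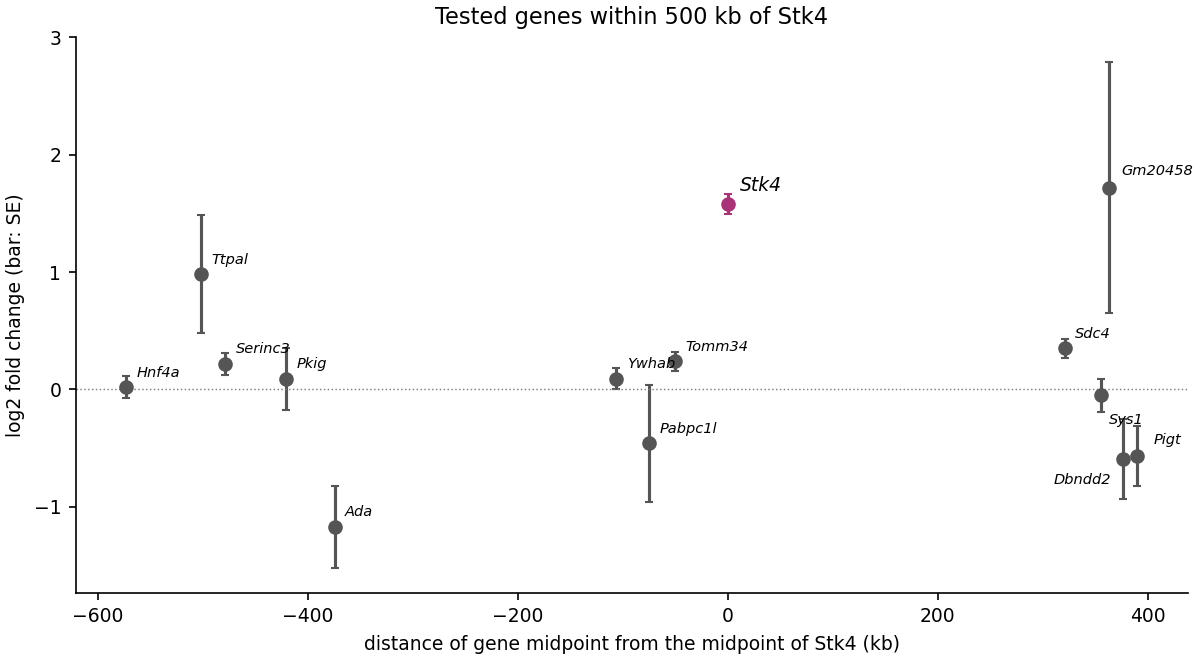
Log2 fold change (knockdown against control) of the 13 tested genes within 500 kb of Stk4 and of Stk4 itself, by distance between gene midpoints in kb; bars are the SE of the edgeR fit. Stk4 lies at 1.58 while Tomm34 and Sdc4, the nearest tested genes on its sides, lie at 0.24 and 0.35, and the high value of the gene model Gm20458 has an SE of 1.07.

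Likeness over the 6 libraries was measured as the root mean square distance between log2 CPM profiles centred on their means. It was taken over 9793 genes with a mean of at least 5 CPM, with numbered Gm gene models left out. Among these the gene closest to Stk4 was B4galt5, a galactosyltransferase gene also on chromosome 2, from 167298444 to 167349183, at a distance of 0.0525. B4galt5 had 61.1 to 66.6 CPM in control and 176.3 to 183.6 CPM in knockdown cells. Kctd12, a subunit gene of GABA-B receptors with 62.8% of its exonic sequence opposite a gene model on the other strand, followed at 0.087, then the histone methyltransferase gene Kmt2d at 0.109, the interleukin 6 receptor gene Il6ra and the chromatin remodelling gene Baz2a, both at 0.119. Their log2 fold changes were 1.53, 1.64, 1.43, 1.70 and 1.44 in the same order. The measure selects genes with a difference like that of Stk4, so these values are a description.

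Of the YAP and TAZ targets that passed the test, all but Axl were higher in knockdown cells. Of 21 genes of a published signature of YAP and TAZ activity, with Lats2 left out as it is described above, 18 had enough counts to test, and 4 were higher and 1 lower in knockdown cells. This is 27.8% of the list where 20.6% of all genes tested passed, and for the higher genes 4 of 18 where 9.92% of all genes were higher. Their median log2 fold change was 0.33, beside -0.03 for all genes tested, and 14 of the 18 had a positive value. Without control replicate 1, 9 were higher and 4 lower (72.2% of the list, where 52.1% of all genes passed), with a median of 0.24.

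Ccdc80, an extracellular matrix protein gene, had 105.7, 78.3 and 75.9 CPM in control and 225.5, 221.9 and 232.3 CPM in knockdown cells, and rose by 1.40 on the log2 scale (SE 0.14, edgeR adjusted p = 0.00324). Dock5, which encodes an activator of the GTPase RAC1, went from 24.9 ± 3 to 62.2 ± 4.34 CPM (SD, n = 3 each; edgeR adjusted p = 0.00282, log2 fold change 1.32 with SE 0.123). F3, the gene of tissue factor that starts coagulation, rose by 0.94 (SE 0.122, edgeR adjusted p = 0.00565). These 3 genes kept the call with each library left out.

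Cyr61, also called Ccn1, a matricellular protein gene that is among the best known direct targets, had 164.7, 125 and 129.5 CPM in control and 243, 246.6 and 244.2 CPM in knockdown cells. All knockdown libraries were above all control libraries, and the gene rose by 0.82 (SE 0.121, edgeR adjusted p = 0.00725), with adjusted p up to 0.0481 when a library was left out. Its relative Ctgf, or Ccn2, had 447.4, 840.6 and 901.4 CPM in control and 1104.3, 1082.3 and 1089.4 CPM in knockdown cells. The groups did not overlap, but control replicate 1 lay far below the other controls and the difference did not pass (edgeR adjusted p = 0.151, log2 fold change 0.59 with SE 0.258). Without that library it was 0.33 (SE 0.0393, edgeR adjusted p = 0.000523). Up to 23.2% of the exonic sequence of Ctgf overlaps a gene model on the opposite strand.

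Axl, a receptor tyrosine kinase gene, went the other way, from 330.2, 347.2 and 348 CPM in control to 238, 233.8 and 229.1 CPM in knockdown cells (edgeR adjusted p = 0.0082, log2 fold change -0.54 with SE 0.0823). Its call was kept in 3 of the 6 fits that left out 1 library, with adjusted p up to 0.0639. Myof, a membrane repair protein gene, had 619, 1297.7 and 1251.5 CPM in control and 940.5, 902.6 and 947.1 CPM in knockdown cells. The control libraries lay on both sides of the knockdown libraries (edgeR adjusted p = 0.693, log2 fold change -0.17 with SE 0.275), and without control replicate 1 the value was -0.45 (edgeR adjusted p = 0.000139). Ankrd1, a cardiac ankyrin repeat protein gene often used as a YAP readout and named here after its values were seen, had 512.4 to 540.6 CPM in control and 572.5 to 603.3 CPM in knockdown cells (edgeR adjusted p = 0.214, log2 fold change 0.17 with SE 0.0896).

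Promoters of the targets are shown for a gene that rose, a gene that fell and a gene with 2 matches that did not pass. GGAATG and its reverse complement CATTCC were searched on both strands in the 250 bases before the first listed RefSeq start, and they do not overlap in any window shown. A match was found for 6 of the 14 target genes listed in the RefSeq table (42.9%), for 4 of the 9 Hippo genes listed there (44.4%; Sav1, Mob1a, Yap1 and Wwtr1), and in 12.6% of the promoters of 27025 genes. Matches are in capitals, 5′ to 3′, in GRCm38.p6. The windows are chr3:145649986-145650235, minus strand, for Cyr61, chr7:25788734-25788983, minus strand, for Axl and chr19:36119845-36120094, minus strand, for Ankrd1. Those of Cyr61 and Axl each hold 1 match, while F3, which also rose, has none, and Ccdc80 and Dock5 are not among the 14. Cyr61 is shown because it is the gene that rose and holds a match.
Cyr61: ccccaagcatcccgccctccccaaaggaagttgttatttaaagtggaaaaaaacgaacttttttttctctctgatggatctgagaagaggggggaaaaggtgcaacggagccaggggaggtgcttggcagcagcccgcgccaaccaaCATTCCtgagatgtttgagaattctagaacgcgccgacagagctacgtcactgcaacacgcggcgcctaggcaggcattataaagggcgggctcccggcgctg
Axl: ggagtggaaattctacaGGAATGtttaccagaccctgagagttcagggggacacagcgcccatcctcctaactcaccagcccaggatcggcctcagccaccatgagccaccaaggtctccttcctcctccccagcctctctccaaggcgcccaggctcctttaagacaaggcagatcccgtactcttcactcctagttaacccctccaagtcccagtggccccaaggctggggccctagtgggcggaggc
Ankrd1: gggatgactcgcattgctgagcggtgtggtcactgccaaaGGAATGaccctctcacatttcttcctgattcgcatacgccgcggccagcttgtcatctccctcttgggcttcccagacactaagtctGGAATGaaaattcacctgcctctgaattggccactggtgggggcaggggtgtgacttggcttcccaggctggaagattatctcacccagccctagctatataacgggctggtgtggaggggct

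Of 8 genes for TEAD factors and for VGLL proteins, which compete with YAP and TAZ for TEAD, 5 had enough counts to test, 2 of them higher and 1 lower (60%, where 20.6% of all genes tested passed). Tead4 rose from 27.8 ± 2.01 to 43.9 ± 2.26 CPM (SD, n = 3 each; edgeR adjusted p = 0.00901, log2 fold change 0.66 with SE 0.104). Tead2 fell from 79.1 ± 0.932 to 49.2 ± 4.95 CPM (edgeR adjusted p = 0.00757, log2 fold change -0.68 with SE 0.102). Vgll4, the gene of a repressor of TEAD, rose by 0.68 (SE 0.145, edgeR adjusted p = 0.0213), with 60.9, 78.3 and 86.8 CPM in control and 127.1, 120.4 and 112.9 CPM in knockdown cells. Tead1 was at 0.16 (SE 0.211, edgeR adjusted p = 0.628) and Tead3 at -0.17 (SE 0.218, edgeR adjusted p = 0.611) on the log2 scale. Vgll1, Vgll2 and Vgll3 had no count in any library, where 3 counts, the limit that a count of 0 allows for counting error, correspond to 0.185 to 0.251 CPM. Leaving out knockdown replicate 2 or 3 left none of the 5 past the threshold of the edgeR test, where 4.91% and 4.37% of all genes passed. In each case 3 of the 5 had an unadjusted edgeR p below 0.05, as did 3148 of 12145 and 3157 of 12212 genes tested. Leaving out control replicate 1 brought all 5 past the threshold, where 52.1% of all genes passed.

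Of 47 other regulators of the pathway, 42 had enough counts, 9 of them higher and 5 lower in knockdown cells (33.3%, where 20.6% of all genes tested passed). Their median log2 fold change was 0.21. Dlg5, the gene of a polarity scaffold that binds MST kinases, had 79.8, 97.6 and 101.2 CPM in control and 200.6, 195.6 and 197.1 CPM in knockdown cells, and rose by 1.10 (SE 0.115, edgeR adjusted p = 0.00347). Rassf3, of the RASSF family whose SARAH domain binds MST kinases, rose by 0.83 (SE 0.0984, edgeR adjusted p = 0.00446), and Limd1, an Ajuba family protein gene whose product binds LATS, by 0.67 (SE 0.0971, edgeR adjusted p = 0.00702). Fbxw11, a substrate receptor of the ubiquitin ligase that degrades YAP and TAZ, rose by 0.63 (SE 0.0797, edgeR adjusted p = 0.00523). All 4 passed in each of the 6 fits that left out a library.

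Wwc1, the gene of KIBRA that acts with merlin upstream of LATS, rose from 115.3 ± 6.22 to 165 ± 4.63 CPM (SD, n = 3 each; edgeR adjusted p = 0.00992, log2 fold change 0.52 with SE 0.0849), with adjusted p up to 0.0649 when a library was left out. Slmap, an adaptor of the STRIPAK phosphatase complex that dephosphorylates MST kinases, rose by 0.61 (SE 0.0911, edgeR adjusted p = 0.00759), with adjusted p up to 0.0541. The following genes that passed lie outside the rule for named genes and were named after their values were seen. Fat1, the atypical cadherin gene (1.01), the STRIPAK subunit gene Strn4 (0.50) and the casein kinase gene Csnk1d (0.39) rose. Rassf2 (-3.23), Mob3c (-0.66), Mob4 (-0.44) and Mob3a (-0.40) fell. Rassf2 had 14, 15 and 19 counts in control and 3, 0 and 2 counts in knockdown cells, and 59% of the exonic sequence of Mob3a overlaps a gene model on the opposite strand. Each of these 7 lost its call in at least 3 of the 6 fits that left out 1 library. STRIPAK genes thus stood on both sides, with Slmap and Strn4 higher and Mob4 lower.

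The most abundant regulators that did not pass were the PP2A catalytic subunit gene Ppp2ca, which has 41.3% of its exonic sequence opposite another gene model and whose log2 fold change was 0.10 with SE 0.0859 (edgeR adjusted p = 0.449), and the 14-3-3 gene Ywhaz, with -0.14 (SE 0.0902, edgeR adjusted p = 0.297). Amot, the gene of angiomotin, which binds YAP at junctions, was named after its values were seen. It had 10.3, 25.2 and 24 CPM in control and 39.9, 41.3 and 39.3 CPM in knockdown cells (edgeR adjusted p = 0.063, log2 fold change 1.02 with SE 0.315), and 0.71 (SE 0.0762, edgeR adjusted p = 0.000331) without control replicate 1. Without that library 18 of the 42 regulators were higher and 7 lower, 59.5% where 52.1% of all genes passed. With knockdown replicate 3 left out the 14 calls became 4, or 9.52% where 4.37% of all genes passed.

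Stk3 and Stk4 belong to the Ste20 kinases, several of which also phosphorylate LATS. Of a list of 22 others, pseudokinases included and PAK kinases left out, 17 had enough counts, 4 of them higher and 1 lower (29.4%, where 20.6% of all genes tested passed), with a median log2 fold change of 0.11. Mink1 rose from 75.7 ± 6.87 to 118.1 ± 2.91 CPM (SD, n = 3 each; edgeR adjusted p = 0.0078, log2 fold change 0.64 with SE 0.0968). Stradb, a pseudokinase partner of LKB1, rose by 0.66 (SE 0.15, edgeR adjusted p = 0.0258) at 5.48 to 6.92 CPM in control and 9.62 to 10.3 CPM in knockdown cells. The LATS-phosphorylating kinase genes Map4k4 and Taok1 rose by 0.34 each (edgeR adjusted p = 0.0364 for Map4k4 and 0.0359 for Taok1). Of the 6 fits that left out 1 library, each kept its call in 1, that without control replicate 1. Other MAP4K and TAOK genes, named after their values were seen, had either sign and did not pass. Taok3 was at 0.39 and Map4k3 at 0.23, but Map4k1 at -0.59 (edgeR adjusted p = 0.0508), Taok2 at -0.12 and Map4k5 at -0.02. Stk26, the gene of MST4, had 2.77, 3.36 and 3.14 CPM in control and 1.38, 0.862 and 1.09 CPM in knockdown cells, and fell by 1.46 on the log2 scale (SE 0.27, edgeR adjusted p = 0.0141). Slk and Stk24, the most abundant that did not pass, were at 0.12 (edgeR adjusted p = 0.629) and 0.30 (edgeR adjusted p = 0.205) on the log2 scale. Stk4, at 1.58, lay above all 17 of these relatives. That is a description only, since Stk4 had already stood out among all genes in the same comparison. Each of the 5 calls was lost in at least 1 fit that left out a library, and without knockdown replicate 3 none of the 17 passed the edgeR threshold, with 6 at an unadjusted p below 0.05.

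**Figure D5:**
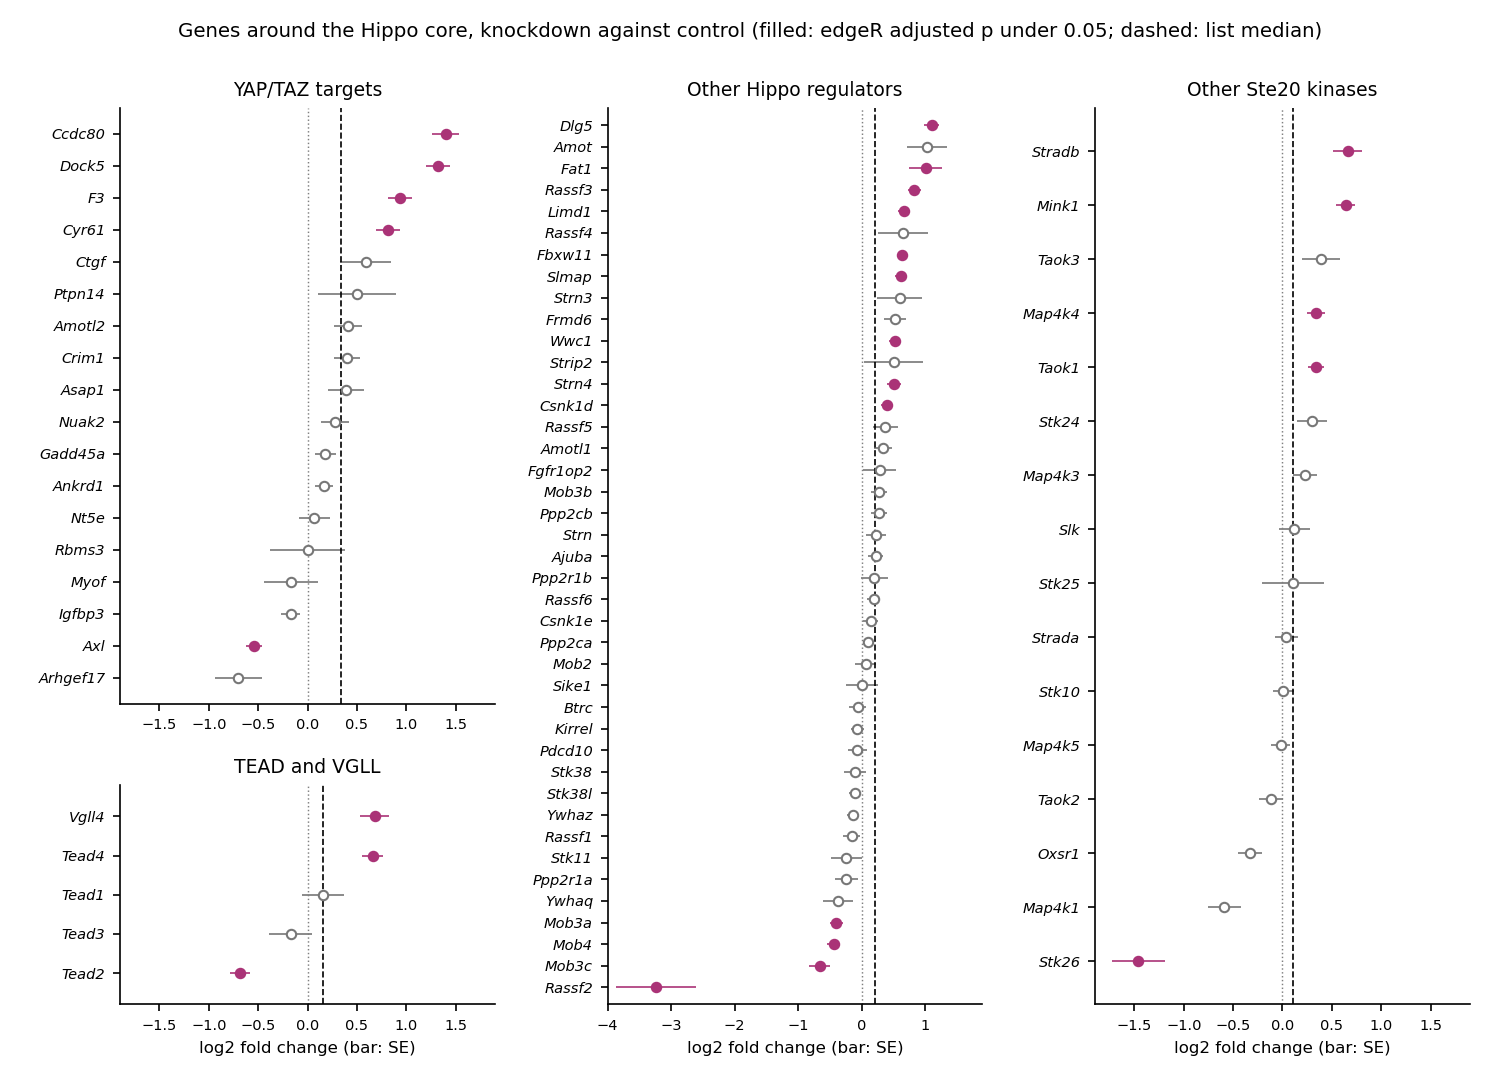
Log2 fold change (knockdown against control) with the SE of the edgeR fit for the tested genes of 4 lists around the Hippo core, except 1 regulator and 1 Ste20 kinase that are not drawn; filled points passed an adjusted p of 0.05 and the dashed line is the median of the whole list. Of the targets 4 are filled above and 1 below 0, of the regulators 9 and 4, of the TEAD and VGLL genes 2 and 1, and of the Ste20 kinases 4 and 1; the regulator panel has a wider axis to hold Rassf2 at -3.23.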

How the data were processed

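RNA of 6 Hepa1-6 libraries was sequenced, 3 per group. The authors deposited whole-number counts per gene and FPKM values, both without scaling between libraries beyond the library total. Per the submitters' processing notes, the tools were HISAT2 (2.0.5) and featureCounts (1.5.0-p3) with mm10; strand setting, annotation and filters: not given in the sources used here. The test was that of edgeR 4.0.16 on the counts, in R 4.3.3 (filterByExpr, TMM, quasi-likelihood, group as the only term, two-sided, Benjamini-Hochberg over 11975 genes, threshold 0.05). The SE is the log2 fold change divided by the root of the F statistic. The procedure was also run on simulated counts in which no library was set apart, so that run does not bear on control replicate 1. Overlap and exonic length come from GENCODE M21 (GRCm38), promoters from RefSeq (GRCm38.p6). For some genes, among them Stk3, Lats1, Lats2 and Mob3a, the M21 span differs from that given with the counts.

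The Hippo genes and the lists around them were chosen with earlier results of these data known. Named were all 10 Hippo genes, per list up to 6 past the threshold with the smallest p and the 2 most abundant that did not pass, for the window around Stk4 the nearest tested gene on each side and up to 3 that passed, and the 5 genes most like Stk4. Alternatives were RLE and upper-quartile scaling, DESeq2 1.42.0, other filters (at least 1 count in all, or 1 CPM in 3 libraries), mitochondrial genes left out, the replicate number as a block, each library left out, and for the Stk4 to Stk3 ratio a pseudocount, counts and other lengths. 1 regulator that passed is counted but not reported here by name. No pair of replicates agreed within counting noise. Total counts limit precision, and for a count of 0 the ceiling is 0.185 to 0.251 CPM.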

Additional observations from a re-analysis of the deposited data

How the results depend on the processing

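Each count depended on which libraries entered. With 1 library left out the genes past the threshold numbered 534 to 6313 over all genes, 4 to 13 for the YAP and TAZ targets, 0 to 5 for TEAD and VGLL genes, 4 to 25 for the other regulators, 0 to 9 for the Ste20 kinases, 0 to 6 for genes near Stk4 and 1 to 7 for the Hippo genes, in each case highest without control replicate 1. Where the edgeR count was 0, the unadjusted p was below 0.05 for 3 TEAD and VGLL genes, 6 Ste20 kinases and 2 to 3 genes near Stk4. The Stk4 to Stk3 ratio difference stayed between 1.73 and 2.12. With the replicate number as a block the counts were 987 over all genes, 5 for regulators, 1 for Ste20 kinases and 0 for genes near Stk4 (edgeR, 2 at an unadjusted p below 0.05), and the counts for targets, TEAD and VGLL genes and Hippo genes stayed within 1.5 times. Deviations of same-numbered libraries from their group means correlated at 0.001, 0.017 and 0.048 across genes. The labels do not say whether the numbers pair the samples. With 3 libraries per group, and control replicate 1 apart from the other controls, these values cannot decide it. With no filter beyond 1 count the Ste20 kinases past the threshold numbered 3 and the genes near Stk4 0 (edgeR, 5 at an unadjusted p below 0.05). DESeq2 gave 3 genes near Stk4 and 2 Hippo genes, Stk4 and Yap1. Among the list genes named by the rule above, signs changed with 1 library left out for Myof (-0.45 to 0.01, the latter without control replicate 2), Tead1 (-0.03 to 0.41) and Tead3 (-0.37 to 0.02, both changed by control replicate 3) and Slk (-0.04 to 0.21, changed by control replicate 1), none of which had passed. List genes outside that rule also changed sign, such as Stk25 (-0.09 to 0.6) and Stk38 (-0.21 to 0.12). Of the Hippo genes, Mob1a changed sign without knockdown replicate 3 (-0.12 to 0.26) and Mob1b without control replicate 1 (0.27 to -0.02). Apart from fewer or other libraries or genes entering a fit, the cause was not tested. Of the 100 alternative values of the list counts and the ratio, 64 stayed within the bounds set for them.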

Other observations

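Single libraries departed from their group at other genes of these lists, named here after their values were seen. Sike1, a STRIPAK subunit gene, had 72.7 CPM in knockdown replicate 1 and 141.4 and 141.6 CPM in the other knockdown libraries, against 114.8 to 128 CPM in control cells. Fgfr1op2, the gene of the related STRIPAK subunit, had 69 CPM in knockdown replicate 1 and 112.4 and 111.9 CPM in the others, and its control values of 70.6, 105.8 and 66.6 CPM were as far apart. The 14-3-3 gene Ywhaq had 84.7, 69.1 and 130.1 CPM in the knockdown replicates. Near Stk4, the tocopherol transfer protein-like gene Ttpal had 31.4 CPM in knockdown replicate 1 and 12.4 and 7.52 CPM in the others. For comparison, Stk4 in knockdown replicate 3 was at 1.02 of the mean of the other knockdown libraries, where Mob1a was at 0.301.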
